A study of Mus musculus with 30 samples.

Results

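The WAVE and WASP genes encode proteins that switch on the Arp2/3 complex, the nucleator of branched actin filaments. Here 10 of them were followed, namely Wasf1, Wasf2, Wasf3, Nckap1, Cyfip1, Cyfip2, Abi1, Abi2 and Brk1 of the WAVE complex and Wasl. A region of open chromatin belonged to a gene when that gene's transcription start site (TSS) was the nearest protein-coding TSS, within 50 kb. By this rule 187 of 305931 regions of the 24 h table and 227 of 369846 regions of the 4 h table belonged to the 10 genes. Accessibility was measured by ATAC-seq, in which a transposase cuts open DNA, as read counts per region in 21 libraries. They form 7 groups of 3, each of male C57BL/6J cells by their labels. Mesenchymal stem cells (MSCs) from mouse bone marrow were left untreated, or received CK666 or CytoD, and were collected at 24 h. MSCs and NIH3T3 cells were also collected at 4 h without treatment or with CK666. NIH3T3 is an embryonic fibroblast line, which is commonly described as coming from NIH Swiss mice, so that its strain label may not describe its origin. The genes were chosen by family membership, but with the treated-against-control log2 fold changes and adjusted p-values of these data already in view. Their values in those comparisons are therefore a description of the fit over all regions and no independent evidence. ATAC-seq of a culture averages over its cells, so a change in part of the cells and a smaller change in every cell cannot be told apart. The paper states that its MSCs were a primary line made from mouse marrow, so their libraries do not stand for separate animals. Nothing ties a library to a culture, so p-values measure only the spread between libraries, which may be technical.

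Branched actin grows when Arp2/3 starts a new filament on the side of an existing one. Arp2/3 is nearly inactive by itself and is engaged by the C-terminal end of a nucleation promoting factor. Wasf1, Wasf2 and Wasf3 encode the WAVE proteins that carry this end, and the other subunits hold them inactive until the GTPase Rac binds the complex through Cyfip1 or Cyfip2. Nckap1 is the scaffold partner of the Cyfip subunit, Abi1 and Abi2 are alternative adaptor subunits, and Brk1 is the smallest subunit. Wasl encodes N-WASP, which responds to Cdc42. CK666 holds Arp2/3 in its inactive form, while CytoD (cytochalasin D) caps filament ends. The comparisons ask whether chromatin at the genes upstream of Arp2/3 changed when Arp2/3 itself or filament growth was blocked.

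Libraries held 14071301 to 34979833 counts in regions, and within a group they correlated with Spearman's rho of 0.834 to 0.952. The shallowest NIH3T3 library was CK666 replicate 1, with 14496058 counts. Of 9 stromal markers, 6 had a tested promoter region in the MSC fit at 24 h and 7 in the fit of both cell types at 4 h. Both cell types share that fit and its count filter, so its count of markers cannot differ between them and describes neither one. In the MSC 4 h controls the Thy1 promoter region had only 1.29 normalized counts per kb, against 134 in the NIH3T3 controls. No tested promoter region was found for the MSC surface markers Eng and Nt5e. None of 5 haematopoietic markers, Ptprc included, had a tested promoter region in any control. Of 3 endothelial markers, Cdh5 and Kdr had one in every control, at 17.7 to 109.5 normalized counts per kb, and Pecam1 had none. In the MSC 4 h controls Kdr (109.5) was above the stromal markers Prrx1 (56.6) and Col1a1 (76.4). Of 2 epithelial markers Epcam had one at 24 h (24.8) and none at 4 h, and Cdh1 had none.

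Each gene had 1 promoter region (a region containing its TSS) in each table, and most of the others were distal. Of the 187 regions at 24 h, 111 were intronic and 50 intergenic, and at 4 h these were 127 and 72 of 227. The windows are peaks called on these same libraries, so that their being open is no finding.

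Sites at which treatment changed accessibility are shown first, since they are among the ones followed below. For each, the central 300 bases of the region are given on the plus strand of GRCm38, read from the RefSeq assembly. Capitals mark matches, on either strand, to the TEAD site (GGAATG), the AP-1 site (TGANTCA), the CArG box of SRF, and the xenobiotic response element (TNGCGTG).
Abi1 intron, chr2:22999946-23000245: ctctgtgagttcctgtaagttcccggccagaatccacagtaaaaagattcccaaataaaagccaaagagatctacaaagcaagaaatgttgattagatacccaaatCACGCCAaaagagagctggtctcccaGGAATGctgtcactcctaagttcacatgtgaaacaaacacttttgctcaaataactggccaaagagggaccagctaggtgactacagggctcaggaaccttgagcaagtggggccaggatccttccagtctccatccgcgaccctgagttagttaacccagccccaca
Abi1 intron, chr2:23025124-23025423: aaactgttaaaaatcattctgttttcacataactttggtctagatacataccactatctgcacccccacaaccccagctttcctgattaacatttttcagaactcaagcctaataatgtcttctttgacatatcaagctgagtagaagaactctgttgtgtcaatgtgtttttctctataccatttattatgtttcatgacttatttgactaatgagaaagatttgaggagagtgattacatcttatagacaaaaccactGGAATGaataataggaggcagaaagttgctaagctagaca
Nckap1 intron, chr2:80565290-80565589: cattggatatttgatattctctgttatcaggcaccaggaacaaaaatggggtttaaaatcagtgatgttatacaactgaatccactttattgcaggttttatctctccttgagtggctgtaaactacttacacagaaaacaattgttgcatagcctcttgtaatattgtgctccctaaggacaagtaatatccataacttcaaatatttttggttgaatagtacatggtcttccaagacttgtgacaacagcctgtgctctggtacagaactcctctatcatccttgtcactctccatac
Wasf3 intron, chr5:146410921-146411220: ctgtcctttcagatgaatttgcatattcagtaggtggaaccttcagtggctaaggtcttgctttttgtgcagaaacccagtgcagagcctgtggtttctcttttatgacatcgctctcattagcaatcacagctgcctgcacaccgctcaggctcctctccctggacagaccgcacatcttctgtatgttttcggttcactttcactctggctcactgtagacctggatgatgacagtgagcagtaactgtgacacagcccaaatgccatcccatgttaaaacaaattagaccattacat
Wasf2 intron, chr4:133182718-133183017: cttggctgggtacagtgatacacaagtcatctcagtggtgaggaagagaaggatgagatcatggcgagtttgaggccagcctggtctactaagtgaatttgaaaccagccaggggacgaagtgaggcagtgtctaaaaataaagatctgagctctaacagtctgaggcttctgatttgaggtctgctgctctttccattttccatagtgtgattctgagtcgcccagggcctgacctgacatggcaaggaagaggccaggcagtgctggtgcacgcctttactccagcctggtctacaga
The first Abi1 site holds 1 TEAD match and 1 xenobiotic response element, and the second holds 1 TEAD match. No match was found in the central bases of the other 3. Among called sites described below but not printed, the Cyfip1 intron lowered in MSCs at 4 h holds 2 AP-1 matches. The region upstream of Nckap1 holds 1 AP-1 match, and the Wasf1 intron lowered by CytoD holds 1 AP-1 and 1 TEAD match. The Abi1 intron lowered by CytoD and the region upstream of Abi1 raised in NIH3T3 hold 1 TEAD match each. Among the central 300 bases of all 300323 regions tested at 24 h, 19.9% hold a TEAD site, 21.1% an AP-1 site, 1.55% a CArG box and 2.73% a xenobiotic response element. For 368794 regions tested at 4 h, where the Wasf3 and Wasf2 sites belong, the shares are 21.3%, 28.8%, 1.63% and 2.67%. These matches describe letters in the window and nothing more.

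Promoter accessibility differed widely among the genes. In MSC controls at 4 h, Wasl had the highest promoter level, 3510 ± 192 normalized counts per kb (SD, n = 3), and Cyfip2 the lowest, 239 ± 4.83. Nckap1 (1530 ± 27.8), Abi1 (1296 ± 28.9) and Cyfip1 (1225 ± 35.8) followed Wasl. Among these top 4 genes no value of a gene overlapped with those of the next in order. Wasf1 stood at 560 ± 7.92, and its region also contains the Cdc40 TSS. Abi2, Wasf3 and Wasf2 lay at 378 ± 46.7, 313 ± 55.5 and 307 ± 7.33, and neighbours in this order overlapped. At 24 h the order was headed by Wasl (990 ± 122) and closed by Cyfip2 (63.3 ± 9.93) too.

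**Figure D1:**
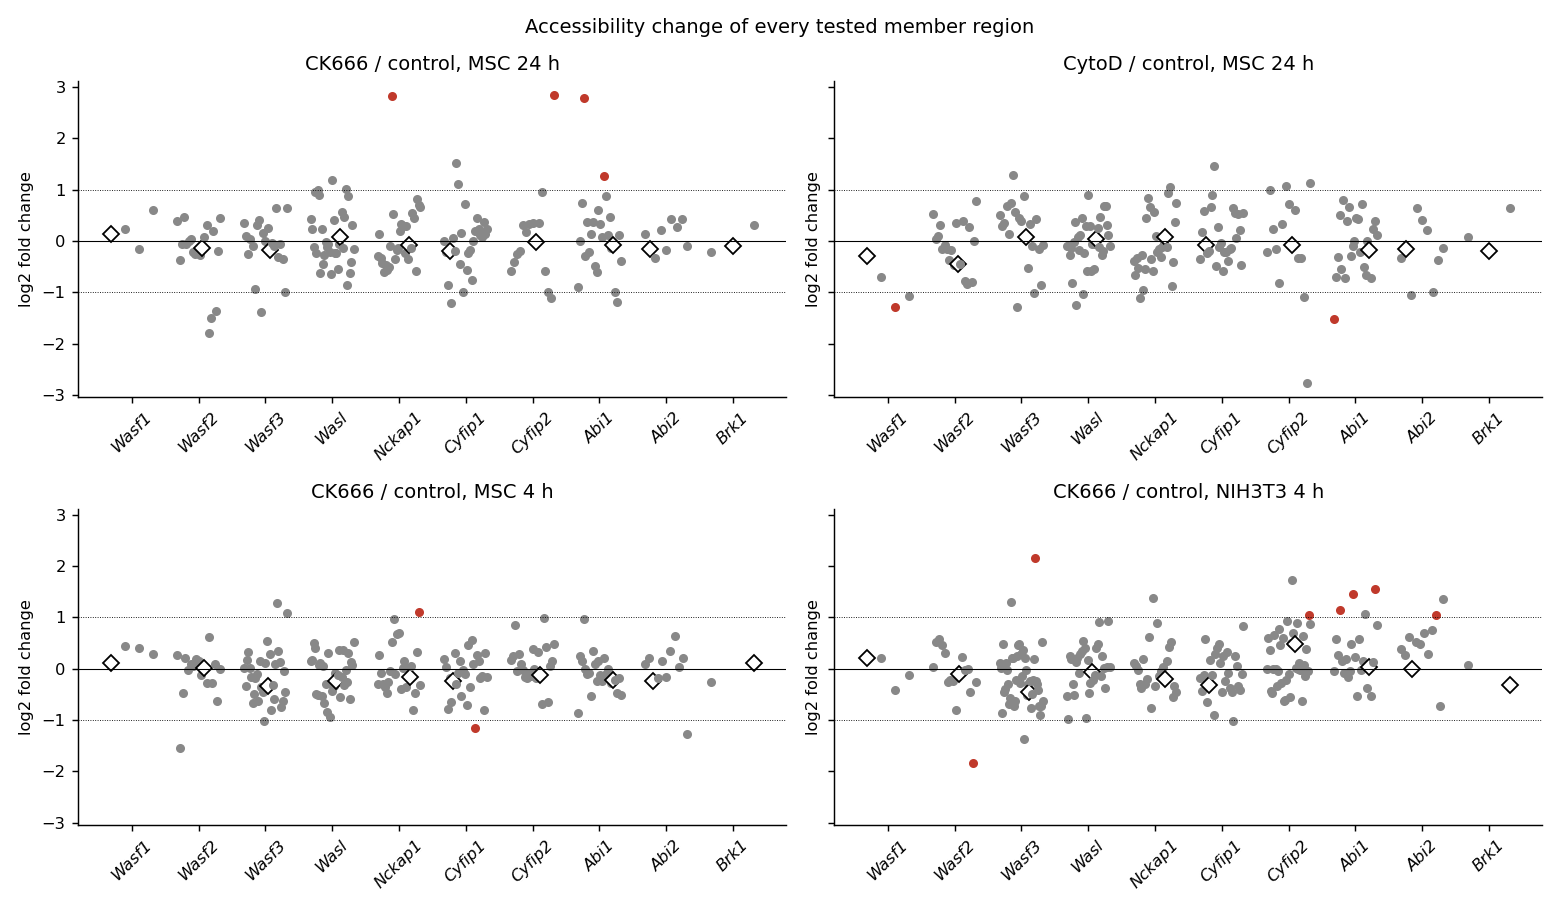
Log2 fold change of accessibility for every tested member region in 4 comparisons; each point is a region, ordered by position within a gene, diamonds are promoters, red points passed both limits and dotted lines mark a log2 fold change of 1 and -1. The promoters lie near 0, and 4, 2, 2 and 7 regions are red in the 4 panels.

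CK666 at 24 h opened 4 of the 183 tested member regions and closed none. All 10 promoters stayed below the limits, but no share over all promoter regions was computed, so this has no background. Calls, in this and every later comparison, needed both an adjusted p below 0.01 and a log2 fold change above 1 or below -1. The p-values are from the quasi-likelihood test of edgeR on the raw counts, adjusted by Benjamini-Hochberg over all regions tested. Over all 300323 regions tested, 1.88% rose and 1.06% fell, so that 4 of 183 is a share near the background. DESeq2 with default settings, the tool of the study, called 6 members here, 4 higher and 2 lower. The median log2 fold change was -0.03 over the members and 0.02 over all regions. The 3 described here are intronic and belong to Abi1 and Nckap1.

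In an intron of Abi1 (chr2:22999518-23000674, 39430 bp from the nearest Abi1 TSS) the control libraries had 22.1, 11.9 and 17.9 normalized counts and the CK666 libraries 134.8, 114.0 and 100.2. Every CK666 library was thus far above every control. The log2 fold change was 2.78 ± 0.27 (SE; edgeR adjusted p = 8.79e-14). A second Abi1 intronic site (chr2:23024827-23025721) had 33.8, 19.6 and 23.2 in the controls against 68.4, 41.8 and 69.8 with CK666. The groups did not overlap here either, but the distance was smaller, with a log2 fold change of 1.26 ± 0.29 (edgeR adjusted p = 0.00136). Leaving out any 1 of 4 libraries (CK666 replicates 1 and 3, control replicates 2 and 3) ended this call, with adjusted p up to 0.0315.

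In an intron of Nckap1 (chr2:80565064-80565816) controls had 15.6, 9.38 and 18.8 normalized counts and CK666 libraries 89.9, 120.1 and 99.3. The log2 fold change was 2.83 ± 0.29 (edgeR adjusted p = 7.37e-13), and every CK666 library was above every control.

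Without the fold limit 10 member regions passed, 7 higher and 3 lower, against 5.93% of all regions, 9036 higher and 8781 lower. Among the smaller changes, a Wasl intron (chr6:24635752-24636279) went from 108 ± 16.5 to 200 ± 13.9 (log2 fold change 0.89 ± 0.15, edgeR adjusted p = 2.19e-06). A region upstream of Abi1 (chr2:23041368-23041925) stood at 75.8 ± 6.65 in controls and 38.1 ± 1.97 with CK666, just short of the fold limit (log2 fold change -0.997 ± 0.24, edgeR adjusted p = 0.00154). The region of Cyfip1 at chr7:55855456-55856038 was also just short of it, at -0.99 ± 0.24 (edgeR adjusted p = 0.00265).

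**Figure D2:**
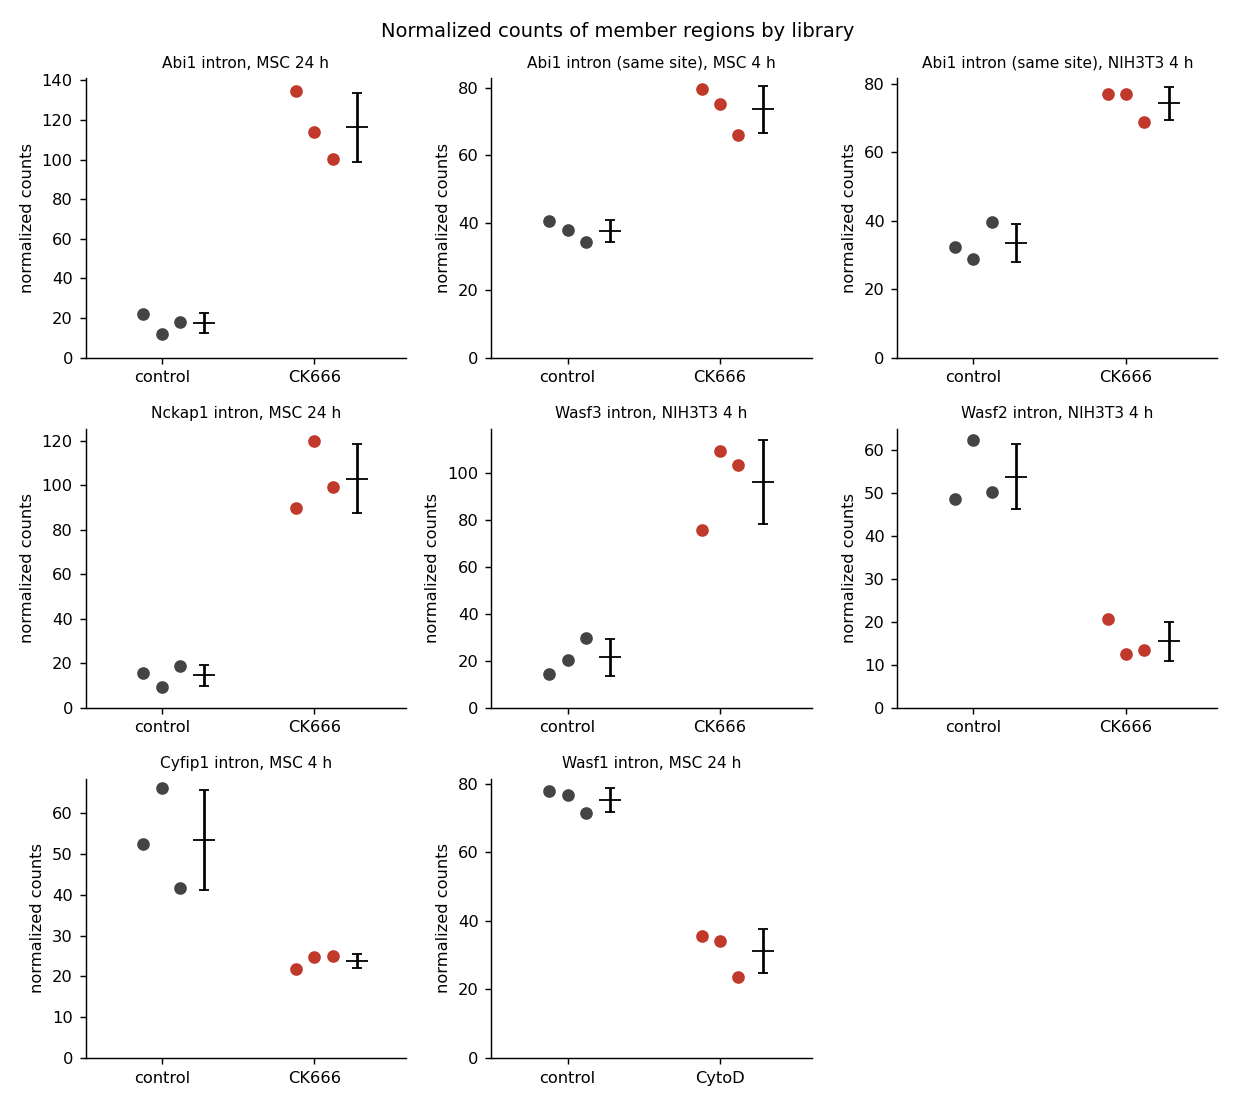
Normalized counts per library in 8 panels, the first 3 of which show 1 Abi1 site in 3 comparisons, with points for the 3 libraries of each group and a bar for the mean with the SD. In the Abi1 intron the CK666 libraries lie between 100.2 and 134.8 at 24 h and between 66.1 and 79.6 in MSCs at 4 h, above all controls.

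CytoD gave no gain among the 183 tested member regions and 2 losses, where 0.98% of all regions rose and 1.4% fell. One loss was at Wasf1, in an intron at chr10:40908498-40909309, where controls had 77.9, 76.7 and 71.5 normalized counts and CytoD libraries 35.6, 34.0 and 23.8 (log2 fold change -1.29 ± 0.25, edgeR adjusted p = 7.33e-05). The other was in an Abi1 intron at chr2:22995929-22996576, with 35.1, 45.2 and 37.5 against 7.64, 23.1 and 11.0 (-1.51 ± 0.38, edgeR adjusted p = 0.00309). The call at Abi1 was lost without CytoD replicate 1 or 3 or control replicate 2. With CK666 at 24 h this Abi1 site was at -0.90 (edgeR adjusted p = 0.0929). CK666 against CytoD gave 0.61 ± 0.40 there (edgeR adjusted p = 0.359), so the loss is not shown to be particular to CytoD. With no fold limit 6 members passed, all lower, at Abi1, Wasf1, Wasl and Cyfip1, against 5.71% of all regions in both directions. Over all regions 5114 passed as higher and 12020 as lower, so losses prevailed in the background too. All 4 Wasf1 regions, of which 1 was called, had a negative log2 fold change, with a median of -0.89. The median over all regions was 0.04. The Wasf1 promoter, whose region also contains the Cdc40 TSS, was at -0.28 ± 0.09 (edgeR adjusted p = 0.0376).

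CK666 and CytoD were compared directly at 24 h, and 7 of 183 members were called (3.83%), against 3.28% of all regions. Of these, 6 were higher with CK666, as were 6421 of the 9839 called over all regions. At the first Abi1 site the CytoD libraries had 33.1, 24.3 and 16.5 normalized counts, below every CK666 library (log2 fold change 2.27 ± 0.26, edgeR adjusted p = 5.95e-11). The Nckap1 intron differed likewise, with 29.3, 35.2 and 15.5 for CytoD (1.98 ± 0.27, edgeR adjusted p = 1.46e-08). At Wasf1, 2 intronic regions were higher with CK666 than with CytoD. They lie at chr10:40908498-40909309 (1.14 ± 0.25, edgeR adjusted p = 0.000465) and chr10:40919467-40920037 (1.67 ± 0.31, edgeR adjusted p = 3.76e-05). The Wasf1 promoter differed by 0.41 ± 0.09 (edgeR adjusted p = 0.000655), less than the fold limit. Calls were also made at the second Abi1 site (1.47 ± 0.30, edgeR adjusted p = 0.000201) and in an Abi2 intron at chr1:60428201-60428796 (1.26 ± 0.34, edgeR adjusted p = 0.00582). The only lower call was 28.7 kb upstream of Wasl, with 36.2 ± 3.76 for CytoD and 14.8 ± 1.52 for CK666. These comparisons share their libraries with those against the control.

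After 4 h of CK666, 1 member region rose and 1 fell in MSCs among 196 tested, where 0.59% and 0.427% of all regions did. The gain lay upstream of Nckap1, in an intergenic region at chr2:80596814-80597508. Controls had 44.9, 53.7 and 47.2 normalized counts and CK666 libraries 109.4, 110.5 and 93.8 (log2 fold change 1.10 ± 0.20, edgeR adjusted p = 2.98e-05). The loss was in a Cyfip1 intron at chr7:55862182-55862848, with 52.4, 66.3 and 41.8 against 21.9, 24.8 and 24.9 (-1.16 ± 0.28, edgeR adjusted p = 0.00229). This call was lost without control replicate 1 or 2, or without CK666 replicate 1 or 2.

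Over all regions 5985 passed as higher and 6627 as lower in MSCs at 4 h without the fold limit. Of 10 members that passed in this way (background 4.11%), 7 were lower. They include the promoters of Cyfip1 (-0.25 ± 0.05, edgeR adjusted p = 0.000936) and Wasl (-0.25 ± 0.06, edgeR adjusted p = 0.00165), both far below the fold limit. Cyfip1 promoter counts were 1816, 1743 and 1862 in the controls and 1557, 1475 and 1537 with CK666, so the groups did not overlap. The Abi1 intronic region at chr2:22995987-22996566 overlaps the site lowered by CytoD at 24 h. Here controls had 267 ± 21.3 and CK666 libraries 146 ± 5.38 (-0.87 ± 0.12, edgeR adjusted p = 7.64e-08). The Abi1 site with the 24 h gain (chr2:22999567-23000734 in this table) had 40.6, 37.9 and 34.3 in the controls and 79.6, 75.2 and 66.1 with CK666. Its log2 fold change of 0.97 ± 0.23 fell just short of the fold limit (edgeR adjusted p = 0.00243).

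**Figure D3:**
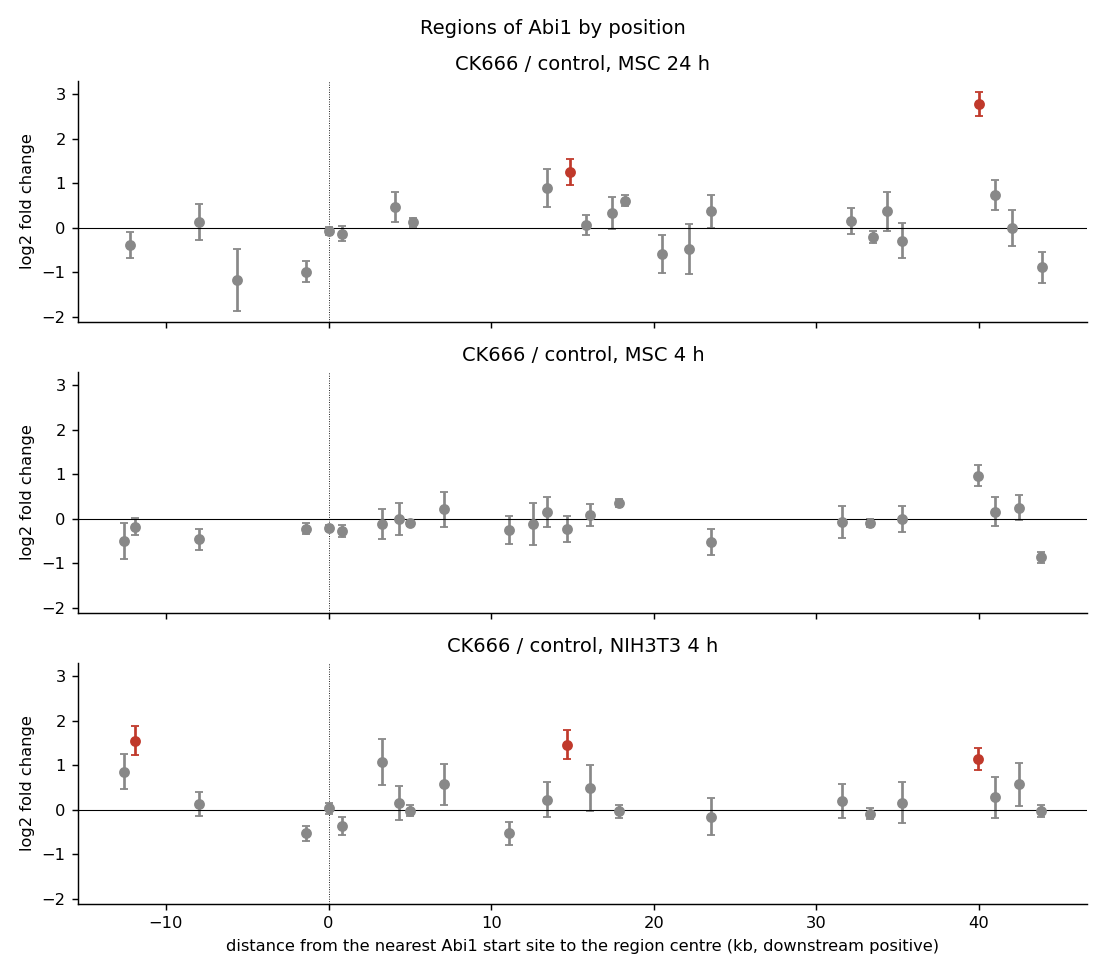
Log2 fold change with CK666 of every tested Abi1 region (points, with SE) against the distance of its centre from the nearest Abi1 TSS in kb. The site near 40 kb downstream is at 2.78, 0.97 and 1.14 in MSCs at 24 h, MSCs at 4 h and NIH3T3 cells at 4 h; red points passed both limits.

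In NIH3T3 cells CK666 for 4 h raised 6 of 218 tested member regions and lowered 1, against 1.87% and 1.67% of all regions. Abi1 held 3 of the gains. At the shared intronic site (chr2:22999567-23000734) controls had 32.4, 28.8 and 39.6 normalized counts and CK666 libraries 77.1, 76.9 and 68.8 (log2 fold change 1.14 ± 0.24, edgeR adjusted p = 0.000405). This call was kept in all 13 alternatives run for it. The second Abi1 site, at chr2:23025103-23025725, had 20.3, 14.8 and 15.3 against 57.8, 29.1 and 52.6 (1.46 ± 0.33, edgeR adjusted p = 0.00105). In MSCs at 4 h the same region had a log2 fold change of -0.23 ± 0.29 (edgeR adjusted p = 0.735). The third gain was intergenic, 11582 bp upstream of Abi1 (chr2:23051823-23052487), with 10.1, 22.2 and 17.98 in the controls and 35.6, 41.6 and 70.7 with CK666 (1.55 ± 0.32, edgeR adjusted p = 0.000364). The second site was lost as a call without CK666 replicate 3 or control replicate 2 or 3, and the third without CK666 replicate 3 or control replicate 1.

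The largest of the 6 gains was in an intron of Wasf3 (chr5:146410775-146411368), where controls had 14.2, 20.5 and 29.7 normalized counts and CK666 libraries 75.6, 109.1 and 103.2. The log2 fold change was 2.16 ± 0.25 (edgeR adjusted p = 1.03e-09). In MSCs at 4 h the same region went from 8.55, 7.37 and 8.57 to 23.9, 22.1 and 14.4, which did not pass (1.29 ± 0.47, edgeR adjusted p = 0.0784). The loss lay in a Wasf2 intron (chr4:133182546-133183190), with 48.6, 62.4 and 50.3 in the controls and 20.8, 12.5 and 13.4 with CK666 (-1.83 ± 0.32, edgeR adjusted p = 1.52e-05). It lies 6175 bp from an internal Wasf2 TSS and is not nearest to Wasf2 when only the start of each gene record is used. An Abi2 intron (chr1:60428855-60429390) had 20.3, 25.5 and 26.1 in the controls and 45.97, 49.9 and 52.6 with CK666 (1.04 ± 0.29, edgeR adjusted p = 0.00843). This call was lost in 7 of 13 alternatives.

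Without the fold limit 13 members passed in NIH3T3 (background 6.86%), 7 higher and 6 lower. Over all regions 8327 passed as higher and 14443 as lower. The Wasf3 promoter was lower, with 1148, 972 and 1216 in the controls and 774, 873 and 775 with CK666 (-0.46 ± 0.12, edgeR adjusted p = 0.00583). In a Wasl intron at chr6:24657564-24658082 counts went from 119 ± 8.78 to 60.4 ± 12.6 (-0.95 ± 0.19, edgeR adjusted p = 0.000249). The same Wasl region was lower in MSCs after 4 h of CK666 (-0.31 ± 0.07, edgeR adjusted p = 0.00337), and its 24 h counterpart was lower with CytoD (-0.58 ± 0.11, edgeR adjusted p = 0.000143). With CK666 at 24 h that counterpart did not pass (-0.24, edgeR adjusted p = 0.19).

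The CK666 effect itself was compared between the cell types in 1 fit of 12 libraries. Of 226 members 3 were called (background 1.4%). Upstream of Abi1 (chr2:23051823-23052487) NIH3T3 libraries went from 17.8 ± 6.43 to 51.6 ± 19.8 and MSCs from 80.4 ± 11.0 to 71.3 ± 7.36 (difference in log2 fold change 1.71 ± 0.37, edgeR adjusted p = 0.00153). The region upstream of Nckap1 went from 57.4 ± 10.5 to 46.0 ± 17.2 in NIH3T3 and from 46.1 ± 4.42 to 99.6 ± 9.96 in MSCs (-1.47 ± 0.33, edgeR adjusted p = 0.00278). In a Wasl coding exon (chr6:24632703-24633372) NIH3T3 went from 69.9 ± 6.38 to 35.1 ± 6.71 and MSCs from 171 ± 9.36 to 192 ± 30.4 (-1.17 ± 0.27, edgeR adjusted p = 0.0035). All 3 calls were lost when certain single libraries were left out. At the Wasf3 intron the difference was 0.84 ± 0.52 (edgeR adjusted p = 0.406) and at the shared Abi1 site 0.15 ± 0.34 (edgeR adjusted p = 0.873), neither of which shows that the cell types respond alike.

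The untreated cell types differed far more than any treated group did. Of 226 members 40 were higher and 34 lower in NIH3T3 than in MSCs, where 16.2% and 18.3% of all regions were. Scaled by total counts alone, these were 53 higher and 27 lower. The calls were unevenly spread over the genes. At Wasf3 14 of 44 tested regions were higher in NIH3T3 and none lower, and at Cyfip2 13 of 37 were higher and 1 lower. At Wasl, by contrast, 15 of 33 were lower and 1 higher. Nckap1 had 5 lower and 1 higher of 25, and Wasf1 and Brk1 had no call. In the 4 h fit of MSCs alone, 31 Wasf3, 23 Cyfip2 and 33 Wasl regions passed the count filter. In that of NIH3T3 alone these were 44, 37 and 30. Some regions thus entered this comparison only through the cell type where their counts were higher. The uneven spread is therefore a description and no independent evidence.

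Among promoters only those of Cyfip2 and Wasf3 were called, in opposite directions. The Cyfip2 promoter region had 204, 209 and 212 normalized counts in MSCs and 13.0, 18.2 and 22.0 in NIH3T3 (log2 fold change -3.53 ± 0.23, edgeR adjusted p = 1.95e-23). It was the only Cyfip2 region called lower, in this fit. Downstream in the gene, an intronic region at chr11:46265342-46265878 had 9.14, 0 and 4.05 in MSCs and 78.8, 66.0 and 86.1 in NIH3T3 (4.10 ± 0.41, edgeR adjusted p = 1.10e-14). It did not pass the count filter in the fit of MSCs alone. The region was thus tested only through NIH3T3, where it is high, and its p-value is no support for the contrast. The promoter held 21.1% ± 0.65 of the counts in Cyfip2 regions in MSCs and 0.961% ± 0.27 in NIH3T3 (SD, n = 3). The Wasf3 promoter region had 213, 254 and 304 in MSCs and 1223, 1027 and 1295 in NIH3T3 (2.20 ± 0.12, edgeR adjusted p = 2.21e-29).
The promoters that separate the cell types are shown from RefSeq (GRCm38.p6), 300 bases each, 5′ to 3′ on the strand of the gene, and neither holds a match to the 4 motifs above.
Cyfip2 promoter, minus strand, chr11:46312309-46312608: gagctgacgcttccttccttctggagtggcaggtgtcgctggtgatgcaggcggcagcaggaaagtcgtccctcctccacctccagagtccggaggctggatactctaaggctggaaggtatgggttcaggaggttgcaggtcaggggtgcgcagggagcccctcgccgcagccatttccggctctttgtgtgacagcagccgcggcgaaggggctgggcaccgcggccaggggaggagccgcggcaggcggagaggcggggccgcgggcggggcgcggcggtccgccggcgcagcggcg
Wasf3 promoter, plus strand, chr5:146384756-146385055: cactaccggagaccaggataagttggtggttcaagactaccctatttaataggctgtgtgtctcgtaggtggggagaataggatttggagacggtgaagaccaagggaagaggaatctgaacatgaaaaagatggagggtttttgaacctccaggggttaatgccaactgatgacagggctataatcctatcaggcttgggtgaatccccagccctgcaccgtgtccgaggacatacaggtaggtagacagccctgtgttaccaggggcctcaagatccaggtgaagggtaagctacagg
The Wasf3 window lies mostly before the start of its measured region at 4 h (chr5:146384946-146385768). Of all 32851 RefSeq promoters 14.7% hold a TEAD site and 7.81% an AP-1 site. RefSeq promoter windows were found for 7 of the 10 genes, not for Nckap1, Cyfip1 or Abi2.

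**Figure D4:**
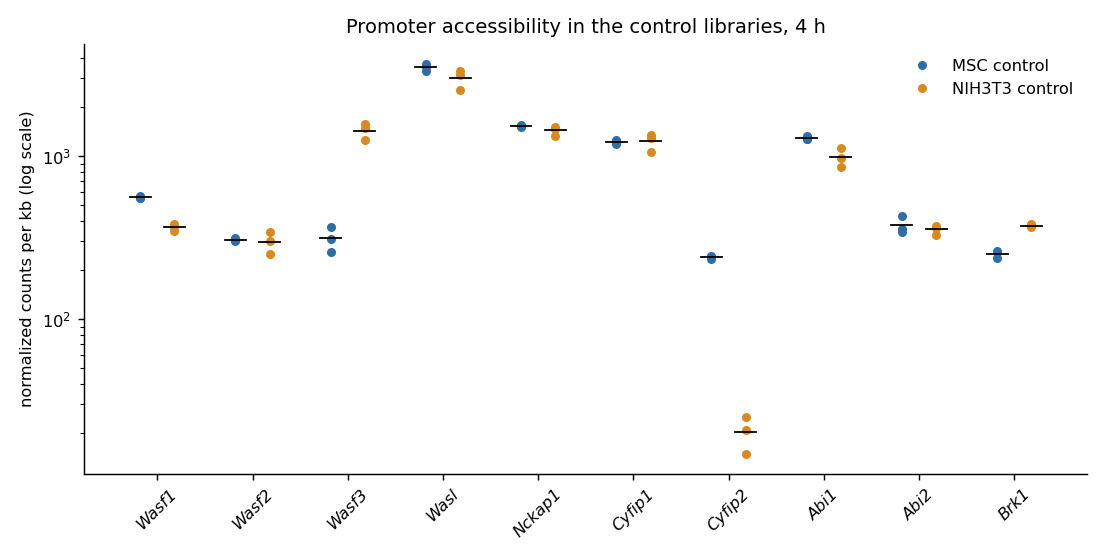
Promoter accessibility in normalized counts per kb (log scale) in the MSC and NIH3T3 control libraries at 4 h, with 3 points per group and a line for the mean. Cyfip2 lies at 239 in MSCs and 20.3 in NIH3T3, and Wasf3 at 313 and 1436.

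The promoters of the other 8 genes differed less. Wasf1 was lower in NIH3T3 by a log2 fold change of -0.62 ± 0.10 (edgeR adjusted p = 1.33e-07) and Brk1 higher by 0.57 ± 0.12 (edgeR adjusted p = 4.55e-05). Abi1 was at -0.40 ± 0.10 (edgeR adjusted p = 0.000342), but at 0.02 once the GC trend of each library was removed, so no direction is given for it. Abi2, Nckap1, Wasf2 and Wasl also changed sign under that setting. The Wasl promoter stood at 3010 ± 404 normalized counts per kb in NIH3T3 and was the highest in both cell types. Its introns were not alike, since the region at chr6:24632008-24632541 had 780, 773 and 761 normalized counts in MSCs and 92.9, 59.0 and 78.5 in NIH3T3 (-3.34 ± 0.14, edgeR adjusted p = 7.14e-36).

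**Figure D5:**
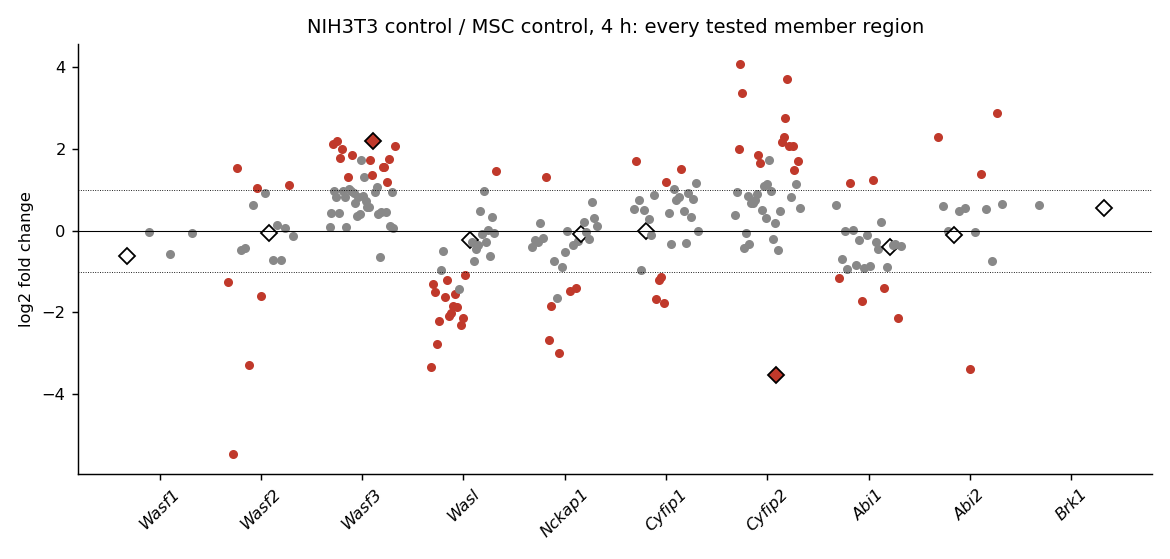
Log2 fold change of NIH3T3 over MSC controls at 4 h for every tested member region, in the style of the treated comparisons (diamonds are promoters, red points passed both limits). Wasf3 and Cyfip2 regions lie mostly above 0 and Wasl regions mostly below, while the Cyfip2 promoter is at -3.53.

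Other genes of the pathway were counted by the same rule, in a list of 29 genes. With CK666 at 24 h, 9 of their 419 tested regions rose and 3 fell, or 2.86% called. In MSCs at 4 h 3 of 366 rose and 2 fell, in NIH3T3 3 of 364 rose and 7 fell, and with CytoD 4 of 419 rose and 4 fell. These are 1.37%, 2.75% and 1.91% called, where 1.02%, 3.54% and 2.38% of all regions were, and 2.94% with CK666 at 24 h. The shares lie near the background, so the calls below describe single regions and not the list. Among Arp2/3 subunit genes a region near Arpc5l rose in all 3 CK666 comparisons, by a log2 fold change of 2.43 at 24 h (edgeR adjusted p = 8.19e-18), 2.26 in MSCs at 4 h (edgeR adjusted p = 3.54e-15) and 2.39 in NIH3T3 (edgeR adjusted p = 1.98e-12). The only promoter region of the list called with a treatment was that of Hcls1, which encodes a cortactin-like Arp2/3 partner of blood cells. It went from 80.7 to 207 normalized counts with CK666 at 24 h (log2 fold change 1.37, edgeR adjusted p = 9.18e-11). The other 3 Hcls1 regions called there also rose, by 1.43 to 1.85, while a different Hcls1 region fell in NIH3T3 (-1.86).

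The remaining calls of the list were scattered over its roles. With CK666 at 24 h, regions of the WASP partner genes Wipf1 and Wipf2 and of the adaptor genes Nck2 and Baiap2 rose, while those of Nck1 (-1.75), the cortactin gene Cttn (-1.01) and the Arp2/3 subunit gene Arpc5 (-1.34) fell. In MSCs at 4 h regions of Actr2 (-1.42) and Actr3 (-1.10), which encode the actin-like subunits of Arp2/3, fell, and regions of Jmy (1.02) and Hcls1 (1.54) rose. In NIH3T3 regions of Actr2, Actr3, Arpc1b, Jmy and Coro1c fell, by log2 fold changes of -1.22 to -1.83, and 2 regions of Wipf1 rose. With CytoD 1 region of Actr3 rose and 1 fell, as did regions of Nck2, while regions of Cttn and Hcls1 rose and regions of Jmy and Coro1c fell.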

How the data were processed

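ATAC-seq libraries were made by the authors by the Omni-ATAC protocol. Paired-end reads were processed by the authors with PEPATAC, bowtie2 and MACS2, and the union of peaks across replicates gave the regions. They deposited raw read counts per region and library, with no normalization. Read filters, tool versions and any shift of reads for the transposase were not given in the sources used here. The submitters' processing notes name mm10, so GRCm38 with GENCODE vM21 was used. Of 30 libraries 21 were analysed, and the 9 siRNA libraries were left out because only the inhibitor comparisons were made here. Every column was mapped to a sample. One item among the regions counted is not reported here.

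Each fit used edgeR 4.0.16 in R 4.3.3 with TMM factors, filterByExpr and the quasi-likelihood test with Benjamini-Hochberg adjustment, over all regions. The 24 h groups shared 1 fit of 9 libraries, and each 4 h cell type had a fit of 6. Both cell types shared a fit of 12 for their difference in response and in untreated level. Normalized counts are TMM-scaled to the mean library. The design follows the study's limits, an adjusted p below 0.01 with a log2 fold change above 1 or below -1, with edgeR in place of DESeq2 1.42.0, which was an alternative. The fits were tested on simulated data. By rule, the text covers each member's promoter and the member regions and pathway genes called in a treated-against-control comparison, apart from what is not reported here. Members past the p limit alone or just short of a limit, and the examples between treatments and cell types, were named after their values were seen. The members and lists were chosen with earlier results of these data known, and the xenobiotic response element was added after the other motifs. Tables were made with Python. Alternatives changed normalization, filter, block, GC trend, replicates, limits, distance and TSS choice. Depth was 14071301 to 34979833 counts a library, and regions with few reads carry wider errors.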

Additional observations from a re-analysis of the deposited data

Results flagged for a closer look

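At 3 member regions the response to CK666 at 4 h differed between NIH3T3 cells and MSCs, by the interaction term of edgeR's fit over both cell types. The difference in log2 fold change was 1.71 ± 0.37 (SE) upstream of Abi1 (start 23051823, adjusted p = 0.00153). It was -1.47 ± 0.33 (value -1.465) upstream of Nckap1 (start 80596814, adjusted p = 0.00278) and -1.17 ± 0.27 in the Wasl coding exon (start 24632703, adjusted p = 0.0035). The Abi1 difference was lost without NIH3T3 CK666 replicate 3 (1.29, adjusted p = 0.0501) and without NIH3T3 control replicate 1 (1.47, adjusted p = 0.0152). The difference at Nckap1 was lost without MSC CK666 replicate 2, MSC control replicate 1, NIH3T3 CK666 replicate 2 or NIH3T3 control replicate 3 (adjusted p up to 0.0156). The difference at Wasl was lost without any of those 4 or without NIH3T3 control replicate 1 (adjusted p up to 0.0229). Groups of 3 are too small for a search for single libraries that stand apart.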

How the results depend on the processing

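With no fold limit, the members called were 10 (CK666, 24 h), 6 (CytoD), 14 (CK666 against CytoD), 10 (CK666, MSC 4 h) and 13 (CK666, NIH3T3). For CK666 against CytoD with no fold limit, 14415 of all 300323 regions passed as higher and 6834 as lower. At an adjusted p under 0.05 with the fold limit the members called were 5 for CytoD, 15 for CK666 against CytoD and 5 for the difference between cell types. No share over all regions was computed for that limit, so these counts have no background. Within 5 kb of a member TSS there were 0 calls in the first 6 comparisons, with 44 to 57 regions tested. Between the cell types there were 12 calls among 57 such regions. Fewer regions were tested at this distance, and no share over all regions within 5 kb of a TSS was computed. These counts thus have no background, and the 0 calls are not read as a drop. Without the filter on low counts CytoD gave 4 calls, and with total counts the difference between cell types gave 5; the cause was not tested. Leaving out 1 replicate gave 3 to 6 (CK666, 24 h), 1 to 3 (CytoD), 4 to 7 (CK666 against CytoD), 1 to 3 (MSC 4 h), 4 to 9 (NIH3T3), 1 to 3 (difference) and 64 to 72 calls (cell types). Of 247 values of called regions 208 kept their call and 39 lost it, 36 of them without a replicate, and none changed sign. DESeq2 called 6, 2, 5, 2, 5, 3 and 73 members in the same order. Over all regions it gave 3194 higher and 4842 lower in NIH3T3 (edgeR 6216 and 5549). For the difference it gave 1434 higher and 4263 lower (edgeR 1837 and 3339). For CK666 in NIH3T3 the paper reports more regions with increased than with decreased accessibility, the reverse of this DESeq2 split. The reason was not tested, and the directions given here follow the sample labels. In no setting did a member promoter pass both limits with a treatment, given without a share over all promoter regions, which was not computed.

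Total counts in place of TMM moved the median log2 fold change of all regions to 0.12 for CytoD, 0.15 for CK666 in NIH3T3, 0.15 for the difference and 0.25 between the cell types, and to -0.10 for CK666 against CytoD. The share of higher calls among all regions then went from 41.2% to 56.4% (CytoD), 65.3% to 53.8% (CK666 against CytoD), 52.8% to 69.5% (NIH3T3), 35.5% to 53.8% (difference) and 46.9% to 59.2% (cell types), and between the cell types 53 members were higher and 27 lower. Same-numbered libraries deviated from their group means with correlations of -0.0729 to 0.0279, so the numbers do not pair them. With the replicate block there were 4, 2, 6, 2, 7, 3 and 70 calls in the order above.

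None of the promoters below passed the fold limit, and some changed sign. With the GC trend removed these were Wasl -0.0345 with CytoD, Abi2 0.0072 with CK666 in NIH3T3, and Abi1 0.0157 (from -0.40), Abi2 0.33 (adjusted p = 0.00462, from -0.0916), Nckap1 0.33 (adjusted p = 0.000473, from -0.0851), Wasf2 0.12 and Wasl 0.19 between the cell types. With total counts they were Abi2 0.10, Wasf2 0.0161 and Wasl 0.0439 in NIH3T3, Cyfip1 0.0191 and Nckap1 0.0455 for the difference, and Abi2 0.14, Nckap1 0.15, Wasf2 0.18 and Wasl 0.0044 between the cell types. DESeq2 gave Abi1 -0.0052 in NIH3T3, and subtracting neighbours within 500 kb gave Wasf1 -0.0057. Without 1 replicate the ranges were, for CK666 at 24 h, -0.13 to 0.0896 (Cyfip2) and -0.0284 to 0.15 (Wasl). For CytoD they were -0.22 to 0.0176 (Cyfip2), -0.0160 to 0.11 (Wasf3) and -0.0744 to 0.11 (Wasl), and for MSCs at 4 h -0.0414 to 0.0312 (Wasf2). In NIH3T3 they were -0.0725 to 0.11 (Abi1), -0.0785 to 0.0519 (Abi2), -0.26 to 0.89 (Cyfip2), -0.22 to 0.0418 (Wasf2) and -0.19 to 0.0025 (Wasl). For the difference they were -0.25 to 0.99 (Cyfip2), -0.0689 to 0.10 (Wasf1) and -0.0080 to 0.24 (Wasl), and between the cell types -0.15 to 0.0147 (Abi2), -0.0644 to 0.13 (Cyfip1) and -0.16 to 0.0868 (Wasf2).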

Other observations

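The regions of the 2 tables overlap in 161 pairs tested in both MSC comparisons with CK666. In 101 of them the log2 fold changes at 24 h and 4 h had the same sign. No share over all regions was computed for this pair of comparisons, so the count has no background. The overlaps involve 147 regions at 24 h and 153 at 4 h, so some regions are in more than 1 pair. Pearson's r across the pairs was 0.50 and Spearman's rho 0.48, given as a description, since regions are not independent replicates. Across 188 member regions tested with CK666 in both cell types at 4 h, 59.0% had the same sign, where 54.7% of all 272609 such regions did.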
